A study of Homo sapiens with 12 samples.

Results

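ATP-binding cassette (ABC) genes were examined in cells of the leukaemia line Reh, which derives from B-cell precursors of acute lymphoblastic leukaemia and is long established, during exposure to cytarabine (Ara-C) with or without human stromal cells. The members were all probes whose symbol in the scanner tables begins with ABC, followed by a letter from A to G and a digit. This gave 89 of the 48800 probes of the Illumina HumanHT-12 v3 array and 47 of its 25158 gene symbols. All 47 matched a current symbol, and 2 of them, ABCA11 (now ABCA11P) and ABCC13, are transcribed pseudogenes in the RefSeq annotation.

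There were 4 groups of 3 arrays, which the study's design text describes as independent triplicates. Untreated Reh cells had neither drug nor stroma. Cells of the other groups had Ara-C for 48 h, either without stroma, with stromal cells labelled HS, or with stromal cells labelled HS5, written HS-5 in the design text. HS-5 is an established line of human bone marrow stroma, and the labels say nothing more of HS. Stroma without Ara-C was not among the groups, and the samples are of a single leukaemia line. Neither the Ara-C dose nor whether stroma was removed before RNA was taken is stated in the labels. No time in culture is given for the untreated cells, so it is not known to match the 48 h of the other groups.

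ABC proteins share an ATP-binding domain, and most use ATP to move a substrate across a membrane. Several of subfamilies B, C and G pump drugs or their conjugates out of the cell and are known for their part in multidrug resistance. Others move cholesterol and phospholipids, peptides, haem precursors or fatty acids, while subfamilies E and F have ATP-binding domains alone and act on ribosomes. Ara-C is a nucleoside analogue that enters through nucleoside carriers and is phosphorylated in the cell, and members of subfamily C are known to export nucleotide analogues.

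Promoter sequences, from 250 bases before to 50 bases after the annotated start, were found in the RefSeq table (GRCh38.p14) for 35 of the 47 symbols. Of these, 4 are shown because their genes carry the patterns described below. ABCA2 and ABCC4 were lower with Ara-C and higher when HS was added, ABCD3 was the reverse, and ABCA1 was higher with either stroma. They lie at chr9:137028873-137029172 on the minus strand, at chr13:95301402-95301701 on the minus strand, at chr1:94418139-94418438 on the plus strand and at chr9:104928106-104928405 on the minus strand. The letters are written in the direction of transcription, and capitals mark matches, on either strand, to the GC box GGGCGG, to the antioxidant response element core TGACNNNGC and to a repeat of the type bound by liver X receptors, GGTNA and again GGTNA in the same direction with 5 bases between.
ABCA2: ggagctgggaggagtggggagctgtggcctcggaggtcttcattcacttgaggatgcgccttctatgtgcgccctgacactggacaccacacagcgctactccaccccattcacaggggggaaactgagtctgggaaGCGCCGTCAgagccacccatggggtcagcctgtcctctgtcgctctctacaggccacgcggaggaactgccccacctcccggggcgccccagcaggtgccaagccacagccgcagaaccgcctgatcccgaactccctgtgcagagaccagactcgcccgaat
ABCC4: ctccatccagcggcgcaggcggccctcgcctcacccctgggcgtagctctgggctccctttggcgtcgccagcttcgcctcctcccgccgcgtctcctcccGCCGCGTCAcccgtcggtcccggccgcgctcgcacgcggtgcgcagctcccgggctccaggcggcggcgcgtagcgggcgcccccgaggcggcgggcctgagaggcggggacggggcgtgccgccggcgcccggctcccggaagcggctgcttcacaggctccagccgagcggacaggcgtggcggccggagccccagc
ABCD3: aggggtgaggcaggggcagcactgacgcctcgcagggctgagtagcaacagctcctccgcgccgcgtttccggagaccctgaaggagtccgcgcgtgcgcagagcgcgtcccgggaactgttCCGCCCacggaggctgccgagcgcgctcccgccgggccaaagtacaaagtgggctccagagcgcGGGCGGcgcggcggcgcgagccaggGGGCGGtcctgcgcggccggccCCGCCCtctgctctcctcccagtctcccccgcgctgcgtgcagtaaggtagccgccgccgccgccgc
ABCA1: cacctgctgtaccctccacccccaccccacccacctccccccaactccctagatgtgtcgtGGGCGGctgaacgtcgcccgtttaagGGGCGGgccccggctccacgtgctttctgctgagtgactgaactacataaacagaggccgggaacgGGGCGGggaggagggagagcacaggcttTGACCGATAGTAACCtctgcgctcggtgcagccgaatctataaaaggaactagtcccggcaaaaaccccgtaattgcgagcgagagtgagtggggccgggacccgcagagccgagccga

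The promoters of ABCA2 and ABCC4 each held a single match to TGACNNNGC, at 113 and 149 bases before the start, and no GC box. That of ABCD3 held 4 GC boxes, and that of ABCA1 held 3 together with the repeat, whose first letter lay 69 bases before the start on the minus strand. No match overlapped another. Among 35116 promoters of the same length, TGACNNNGC was found in 13.3% and in 7 of the 35 ABC promoters. The repeat was found in 0.626% and in that of ABCA1 alone among the ABC promoters, and GGGCGG in 45% and in 18 of 35. A search for CCAAT found it in 34.6% of all promoters and in 6 of 35, with no match in the 4 shown. These matches describe letters and were not tied to binding in these cells.

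Each array had 13064 to 14898 probes detected, meaning a detection p under 0.01 against the negative controls of that array, and a median raw signal of 65.4 to 71.7. Levels below are log2 intensities after background correction and quantile normalization, and detected probes began at 5.41 to 5.94 on this scale, depending on the array. The 12 arrays shared 1 slide on which the 3 arrays of a group were neighbours, so slide position cannot be told apart from group. Within a group, pairs of arrays had r = 0.992 to 0.994 over genes, which are not independent replicates. The label was checked against B-lineage markers. CD79A, CD79B, DNTT, RAG1, IGLL1 and CD24 were among those detected on all 12 arrays, while PAX5, VPREB1, CD22, BLNK and TCL1A were detected on none. MPO, a granulocyte enzyme, stood at a mean log2 of 15.3 in untreated cells and CTSG, another, at 13.6. These levels and the undetected B-lineage markers go against the label in part, and Reh is used here as the labels' name for the cells.

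Transcripts of 25 of the 47 ABC genes were measured well enough to be tested, that is, a probe was detected on at least 3 of the 12 arrays. This is 53.2% of the ABC symbols, against 44.5% of all symbols. In all, 14 ABC genes were detected on all 12 arrays, 17 on none, and 5 on 1 or more arrays without reaching the limit. On all 3 arrays of a group there were 18 ABC genes detected in untreated cells, 21 with Ara-C, 18 with Ara-C and HS and 18 with Ara-C and HS5. By function, all 4 of the ABCE and ABCF genes were tested, 7 of 14 sterol and lipid members, 7 of 16 drug efflux members and neither of the channel regulators ABCC8 and ABCC9. Values of single genes are given for the members reported here, while counts cover all members. The map of detection shows arrays gene by gene.

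**Figure D1:**
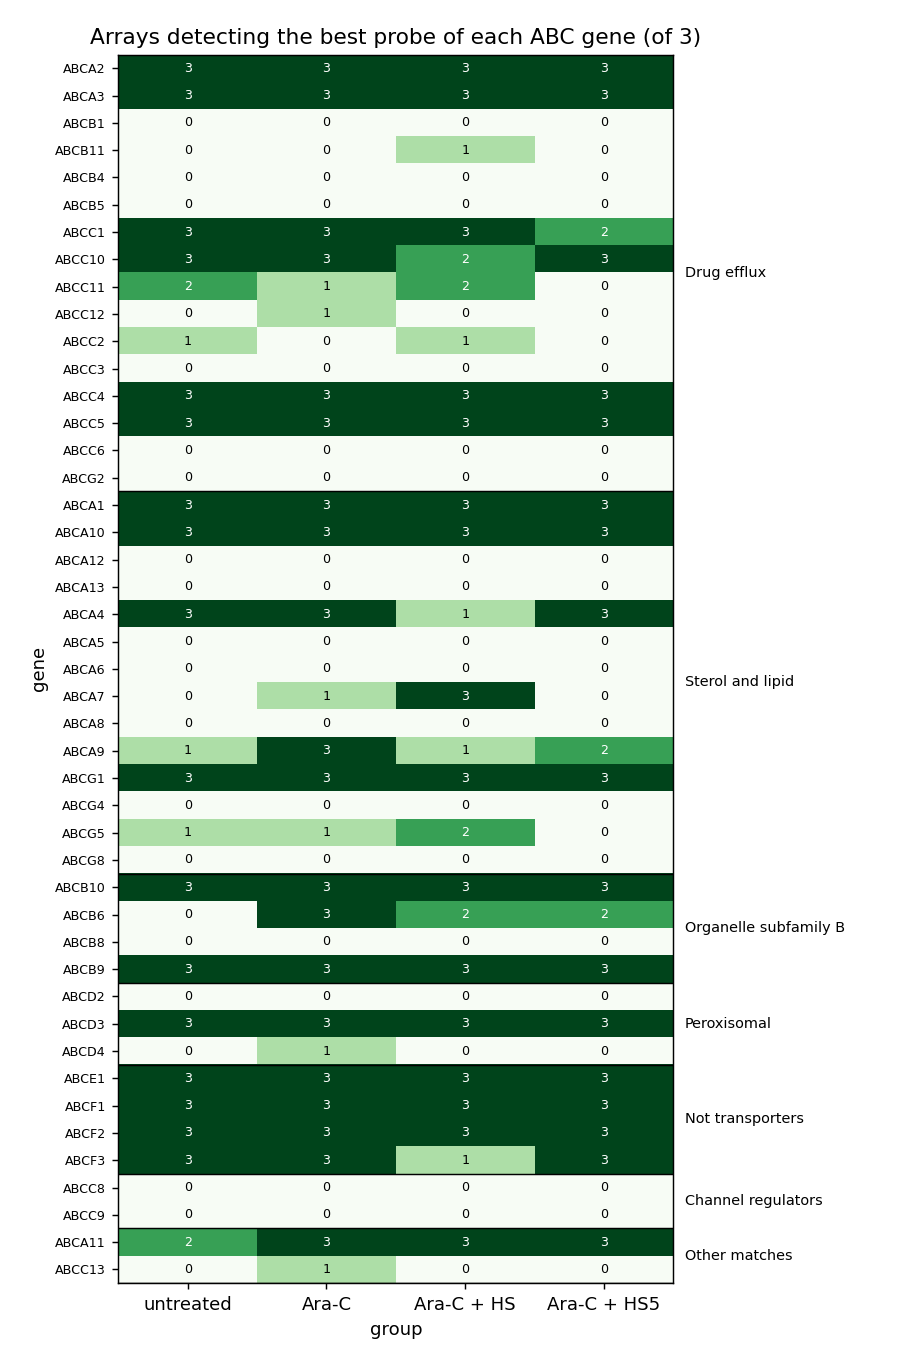
Number of arrays, of 3 in each group, on which the best probe of each of 45 ABC genes had a detection p under 0.01, with genes in rows by function and groups in columns. Among the drug efflux genes, ABCA2, ABCA3, ABCC4 and ABCC5 were detected on all 12 arrays, while ABCB1 and ABCG2 were detected on none.

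Neither ABCB1 nor ABCG2 was detected. ABCB1, which encodes P-glycoprotein, has 2 probes, and neither reached a detection p under 0.01 on any array. The brighter of them had raw signals with a lowest value of 57.3, a median of 68.1 and a highest of 80.6 over the 12 arrays, close to the median of all probes on an array, and its lowest detection p was 0.0290. ABCG2, the breast cancer resistance protein, had raw signals of 50.3, 53.1 and 72.1 in the same order and a lowest detection p of 0.0922. Also detected on no array were ABCC3 with 2 probes, ABCC6 with 6, and ABCB4 and ABCB5 with 1 each. ABCC2, an efflux pump of the hepatocyte apical membrane, was detected on 1 untreated array and 1 array with Ara-C and HS, ABCC12 on 1 array with Ara-C, and ABCB11, the bile salt export pump, on 1 array with Ara-C and HS. For these 9 genes no difference between groups was tested at the limit used here, which does not show that they are absent. At a looser detection p under 0.05, ABCC2 was detected on all 12 arrays, ABCC12 on 10 and ABCC6 on 6. With that filter none of these was called in any comparison.

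The question behind the first comparison was which ABC transcripts differed after 48 h of Ara-C. Among the 25 tested genes 11 were called, 6 higher and 5 lower, where called means a Benjamini-Hochberg adjusted p under 0.05 over all 11183 genes in limma. This is 44% of the ABC genes, beside 51.8% of all genes called in the same comparison, 25.5% higher and 26.3% lower. The median difference of the ABC genes was 0.11 on the log2 scale and that of all genes -0.03. Differences between groups are on this scale throughout. The arrays of the 2 groups did not overlap for 13 of the 25 ABC genes, beside 60% of all genes. In these bulk samples fewer cells of a type and less RNA per cell cannot be told apart.

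With HS added to Ara-C, again 11 of 25 were called against Ara-C alone, 6 higher and 5 lower, beside 42.1% of all genes, 21.6% higher and 20.5% lower. With HS5 added, 1 of 25 was called, higher, beside 0.903% of all genes, 0.528% higher and 0.376% lower. Against untreated cells, 12 of 25 were called with Ara-C and HS, 7 higher and 5 lower, beside 45.1% of all genes, 23.3% higher and 21.8% lower. With Ara-C and HS5, 17 of 25 were called against untreated cells, 11 higher and 6 lower, beside 56.1% of all genes, 27.5% higher and 28.6% lower. Between the stromas, HS5 minus HS under Ara-C, 12 of 25 were called, 6 in each direction, beside 43.2% of all genes, 20.9% higher and 22.3% lower. Arrays did not overlap for 10, 5, 12, 15 and 15 of the 25 genes in these 5 comparisons, beside 52.3%, 19.6%, 53.9%, 62.8% and 51.6% of all genes. The median difference of the ABC genes was 0.10, 0.01, 0.08, 0.19 and -0.07 in these 5 comparisons, and that of all genes lay between -0.02 and 0.01. These comparisons share arrays, since Ara-C alone enters 3 of them and untreated cells enter 3. The plot of differences sets the first 3 comparisons side by side.

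**Figure D2:**
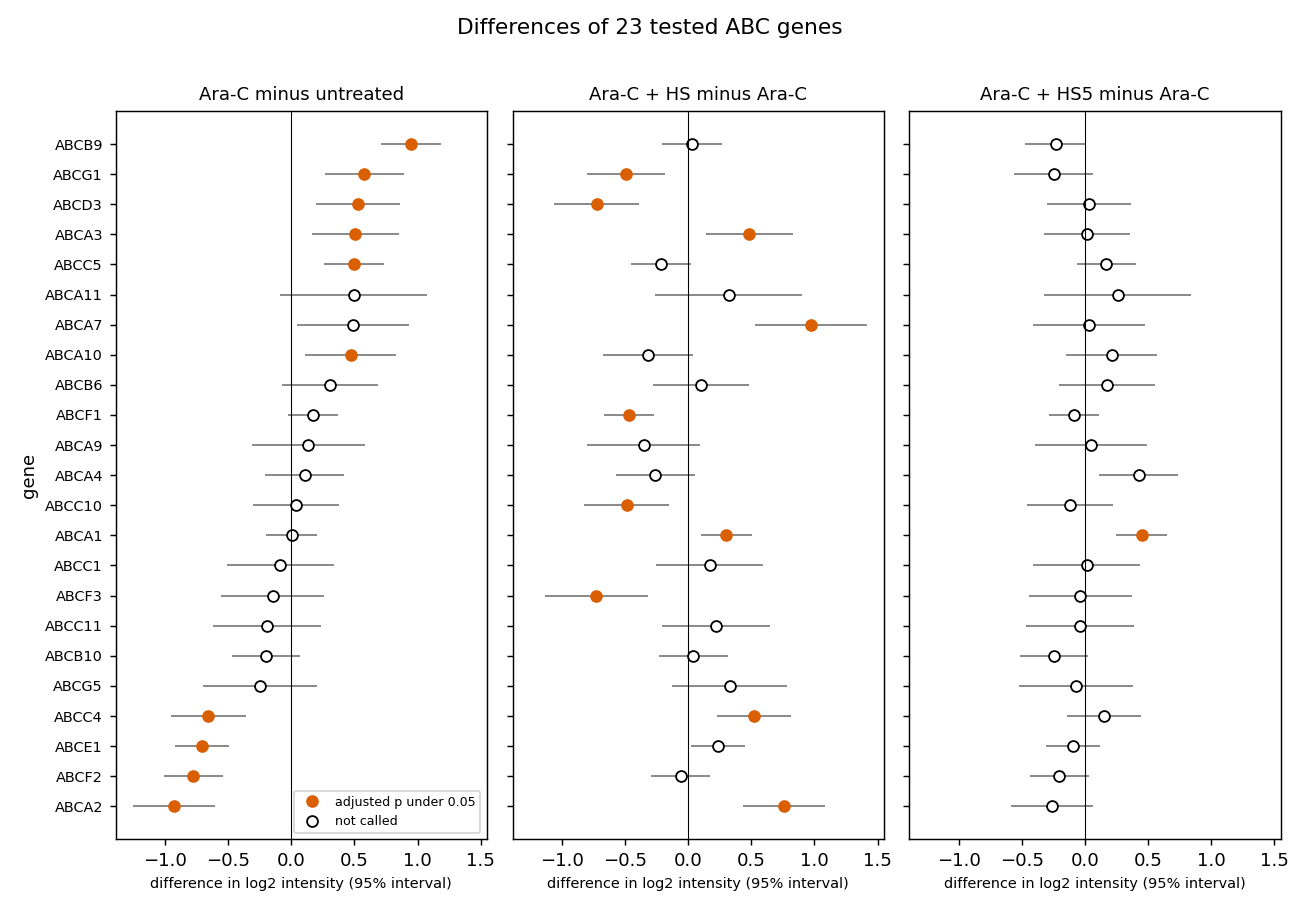
Difference in log2 intensity (x axis, with the 95% interval of the limma fit) for 23 of the 25 tested ABC genes (y axis, in the order of the first panel), for Ara-C minus untreated, Ara-C with HS minus Ara-C, and Ara-C with HS5 minus Ara-C. Filled points had an adjusted p under 0.05, which is 10, 10 and 1 of the 23 genes drawn in the 3 panels.

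Among drug efflux members, ABCA2 and ABCC4 were lower after Ara-C and higher again when HS was present. ABCA2 encodes an endolysosomal lipid transporter that has been linked to resistance to the drug estramustine. Its levels (probe ILMN_1747627) were 7.12, 7.48 and 7.42 in untreated cells, 6.69, 6.44 and 6.10 with Ara-C, 7.15, 7.20 and 7.16 with Ara-C and HS, and 6.02, 6.39 and 6.03 with Ara-C and HS5. The untreated and HS arrays all lay above all arrays of the other groups. In the Ara-C group the difference from untreated cells was -0.93 ± 0.15 (SE), adjusted p = 0.000189, a level 1.91 times lower. Adding HS gave 0.76 ± 0.15 (SE), adjusted p = 0.00138, while adding HS5 gave -0.26 ± 0.15 (SE), adjusted p = 0.49. HS5 minus HS was -1.02 ± 0.15 (SE), adjusted p = 0.000138, the most negative value among drug efflux genes in that comparison.

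ABCC4, also called MRP4, exports cyclic nucleotides and nucleotide analogues. Its levels were 8.19, 8.01 and 8.29 in untreated cells, 7.51, 7.69 and 7.32 with Ara-C, 7.83, 8.15 and 8.11 with Ara-C and HS, and 7.41, 7.80 and 7.75 with Ara-C and HS5. All 3 Ara-C arrays lay below all untreated arrays and all HS arrays. Ara-C minus untreated was -0.66 ± 0.14 (SE), adjusted p = 0.00126, and adding HS gave 0.52 ± 0.14 (SE), adjusted p = 0.00778. Its second kept probe gave -0.56 ± 0.11 and 0.77 ± 0.11 (SE) for the same comparisons, both called with adjusted p = 0.00102 and 0.000173. Ara-C with HS5 lay at 7.65 ± 0.21 (SD, n = 3), with 0.15 ± 0.14 (SE), adjusted p = 0.693, against Ara-C alone, and -0.51 ± 0.14 (SE), adjusted p = 0.00626, against untreated cells. HS5 minus HS was -0.38 ± 0.14 (SE), adjusted p = 0.0395, a call that ended without HS replicates 2 or 3 or HS5 replicate 1 (adjusted p up to 0.169). On the second probe it was -0.78 ± 0.11 (SE), adjusted p = 0.000141.

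ABCC5 and ABCA3 were higher after Ara-C. ABCC5, or MRP5, also exports cyclic nucleotides and nucleotide analogues, and its levels were 8.81, 8.88 and 8.60 in untreated cells, 9.37, 9.18 and 9.22 with Ara-C, 8.84, 9.10 and 9.18 with Ara-C and HS, and 9.49, 9.39 and 9.40 with Ara-C and HS5. Every Ara-C and every HS5 array lay above every untreated array. The difference of Ara-C from untreated was 0.49 ± 0.11 (SE), adjusted p = 0.00192, and Ara-C with HS5 minus untreated was 0.66 ± 0.11 (SE), adjusted p = 0.000189. A second probe gave 0.69 ± 0.12 (SE) for Ara-C, adjusted p = 0.000359. For Ara-C with HS minus untreated the probes differed in their call, with 0.28 ± 0.11 (SE), adjusted p = 0.0507 for the first and 0.72 ± 0.12 (SE), adjusted p = 0.000411 for the second. HS5 minus HS was 0.38 ± 0.11 (SE), adjusted p = 0.0119, a call that did not hold without replicate 1 of the HS group (adjusted p = 0.0569) nor on the second probe (adjusted p = 0.116).

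ABCA3 moves phospholipids into lamellar bodies and has been studied in leukaemia for sequestering drugs in lysosomes. Its levels were 5.97, 6.61 and 6.44 in untreated cells, 6.94, 6.94 and 6.64 with Ara-C, 7.28, 7.28 and 7.42 with Ara-C and HS, and 7.11, 6.67 and 6.80 with Ara-C and HS5. The HS arrays were the highest of all 12, and every Ara-C array was above every untreated one, though the highest untreated array came close to the lowest Ara-C array. Ara-C with HS minus untreated was 0.99 ± 0.16 (SE), adjusted p = 0.000268, a level 1.99 times higher. Ara-C minus untreated was 0.51 ± 0.16 (SE), adjusted p = 0.0169, and adding HS gave 0.48 ± 0.16 (SE), adjusted p = 0.026. Neither of these smaller steps held its call without each array in turn, with adjusted p up to 0.0823 and 0.106 (the arrays in question were untreated replicate 1 and Ara-C replicates 1 and 2 for the first, Ara-C replicate 3 and HS replicate 3 for the second). HS5 minus untreated was 0.52 ± 0.16 (SE), adjusted p = 0.0133, which ended without untreated replicate 1 or HS5 replicate 1 (adjusted p up to 0.065). HS5 minus HS was -0.47 ± 0.16 (SE), adjusted p = 0.0294, which ended without each HS array in turn and without HS5 replicates 2 or 3 (adjusted p up to 0.111).

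ABCC10, or MRP7, which exports taxanes and vinca alkaloids, was lower with HS. Its levels were 6.30, 5.99 and 5.88 in untreated cells, 6.33, 6.22 and 5.73 with Ara-C, 5.53, 5.75 and 5.54 with Ara-C and HS, and 5.83, 5.95 and 6.14 with Ara-C and HS5. The HS arrays lay below all untreated arrays, and 1 Ara-C array fell within their range. The probe was detected on 2 of the 3 HS arrays, so the HS values lie near the detection limit. Adding HS to Ara-C gave -0.49 ± 0.16 (SE), adjusted p = 0.0237, and Ara-C with HS minus untreated gave -0.45 ± 0.16 (SE), adjusted p = 0.0322. Both calls ended without HS replicate 1 or replicate 3, without Ara-C replicates 1 or 2 for the former and without untreated replicates 1 or 2 for the latter, with adjusted p up to 0.103 and 0.133. The call against untreated cells also ended in limma with a median shift, with no filter on detection and with another prior. The adjusted p was 0.373, 0.0634 and 0.0595 in that order. For Ara-C minus untreated it was 0.04 ± 0.16 (SE), adjusted p = 0.861.

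ABCC1 and ABCC11 were called in none of the 6 comparisons. ABCC1, or MRP1, exports anthracyclines and glutathione conjugates, and its levels were 6.71, 6.45 and 6.08 in untreated cells, 6.11, 6.55 and 6.32 with Ara-C, 6.62, 6.51 and 6.36 with Ara-C and HS, and 6.68, 6.44 and 5.90 with Ara-C and HS5. The 4 groups overlapped throughout. The 95% interval of Ara-C minus untreated was -0.51 to 0.34, that of adding HS -0.26 to 0.59 and that of adding HS5 -0.41 to 0.44. ABCC11, or MRP8, exports nucleotide analogues, and its levels were 5.31, 5.87 and 5.78 in untreated cells, 5.42, 5.92 and 5.04 with Ara-C, 5.53, 5.79 and 5.71 with Ara-C and HS, and 5.48, 5.23 and 5.54 with Ara-C and HS5. It was detected on 2 untreated arrays, 1 with Ara-C, 2 with HS and none with HS5, so several of these values lie near the detection limit. Its interval for Ara-C minus untreated was -0.62 to 0.23. Among the 7 tested drug efflux genes none was called when HS5 was added to Ara-C in limma, beside 0.903% of all genes. None had an unadjusted p under 0.05, beside 1505 of all 11183 genes. All 7 are drawn in the plot of drug efflux members.

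**Figure D3:**
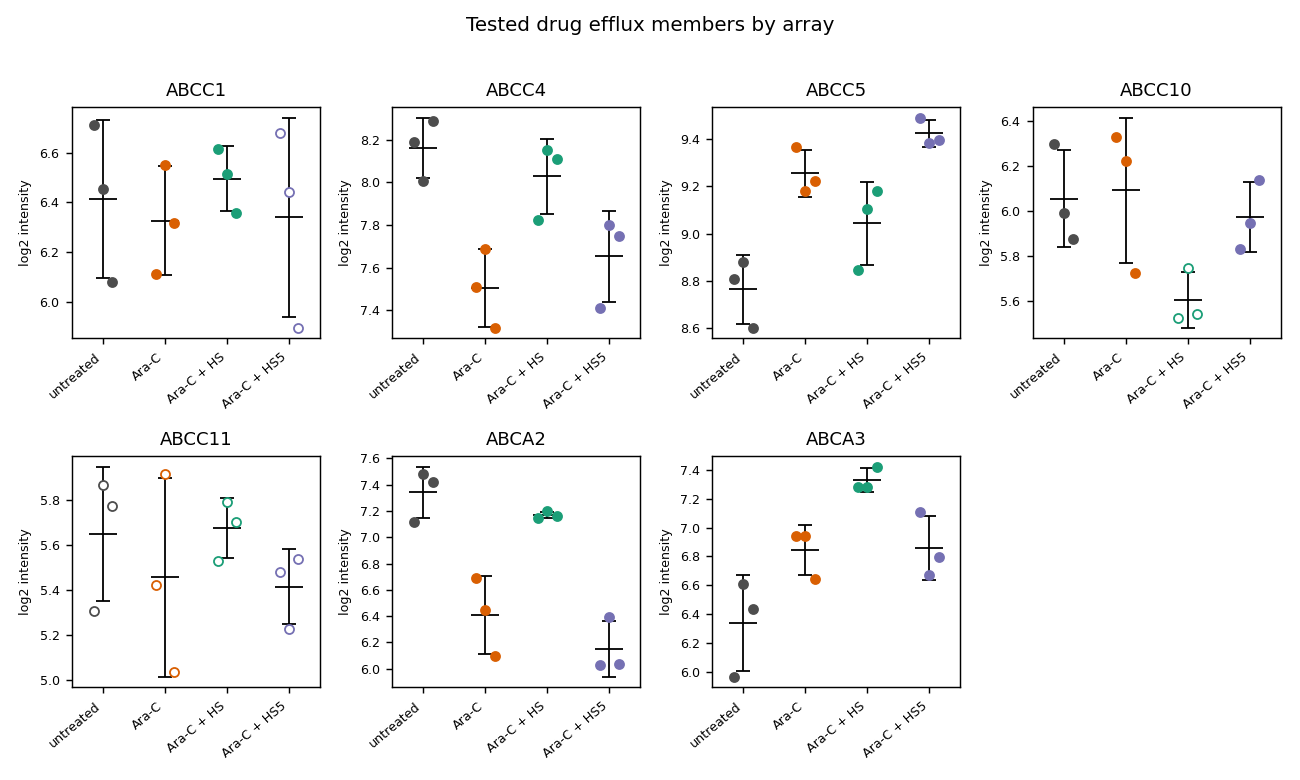
Log2 intensity (y axis, a separate scale for each gene) of the 7 tested drug efflux genes on each of the 12 arrays, by group (x axis), with lines for mean ± SD over 3 arrays. Filled points mark groups in which the probe was detected on all 3 arrays. ABCA2 and ABCC4 were low with Ara-C and high in untreated cells and with HS, and ABCC1 overlapped between all groups.

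Markers of several cell types moved with these differences. Of 18 B-lineage markers, 18 had a probe and 5 were detected on no array. Their summed linear intensity was 7190 to 7621 in untreated cells, 4528 to 4768 with Ara-C, 7264 to 7474 with HS and 3556 to 4052 with HS5. Like ABCA2, it was high in untreated cells and with HS and low in the other groups. Not every member followed the sum. The brightest, CD79B, was at 1405 to 1470 in untreated cells and 1968 to 2202 with Ara-C, and CD72 had mean log2 levels of 5.20 and 6.17. Without CD79B the sum was 5725 to 6216 in untreated cells, 2463 to 2567 with Ara-C, 5322 to 5729 with HS and 1945 to 2111 with HS5. Of 15 macrophage and monocyte markers 7 were detected on no array, CD163, MRC1, MSR1, MARCO, C1QA, C1QB and VSIG4. Their sum was 5604 to 5778 in untreated cells, 8158 to 9611 with Ara-C, 7112 to 8197 with HS and 8475 to 9161 with HS5. The brightest of them, AIF1, made up 43.2% to 57.8% of the sum. Of 15 T and NK cell markers with a probe 7 were detected on no array, CD2, CD3E, CD3G, CD5, CD7, CD8B and KLRD1. Their sum was 3182 to 3336 in untreated cells, 7094 to 7913 with Ara-C, 4684 to 5594 with HS and 8184 to 8899 with HS5. All 6 tested T and NK markers were called higher with Ara-C, with a median difference of 2.28, and 5 of 6 lower when HS was added, beside 25.5% and 20.5% of all genes. Among them CD8A was undetected in untreated cells, at a mean log2 of 4.64. It passed the limit of 3 detected arrays only through the groups given Ara-C, so its difference is a description with no test. The counts and the median include it. Of 14 granulocyte markers with a probe LTF alone was detected on no array. Their sum was 56400 to 62627 in untreated cells, 43613 to 47457 with Ara-C, 48132 to 51076 with HS and 41185 to 43958 with HS5, and MPO made up 65% to 72% of it. Single members differed in direction. Of 13 tested, 4 were called higher and 5 lower with Ara-C, beside 25.5% and 26.3% of all genes. LYZ rose from a mean log2 of 8.24 in untreated cells to 10.34 with Ara-C, while CTSG fell from 13.6 to 12.5. S100A8 and S100A9 were undetected in untreated cells and DEFA4 with Ara-C, so their part in these counts is a description with no test.

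Stromal cells were looked for in the same way. Of 25 stromal fibroblast markers 16 were detected on no array, COL1A1, COL1A2, COL3A1, FN1, DCN and LUM among them. The sum of the list was 9203 to 10710 in untreated cells, 13963 to 16049 with Ara-C, 9412 to 10618 with HS and 14301 to 16429 with HS5, and VIM, which leukaemia cells also express, made up 73.4% to 88.4% of it. Without VIM the sum was 1243 to 1329 in untreated cells, 2500 to 2594 with Ara-C, 2499 to 2524 with HS and 2296 to 2582 with HS5. Of 10 endothelial markers 6 were detected on no array, and their sum was 438 to 488 in untreated cells and 609 to 755 in the groups given Ara-C. The part of these shifts in cell state or makeup in the ABC differences was not tested.

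Sterol and lipid members included the call that HS5 gave. ABCA1, which loads cholesterol and phospholipid onto apolipoprotein A-I, is described in full because it was the single ABC gene called for HS5 against Ara-C alone, a choice made after its values were seen. Its levels were 10.75, 10.52 and 10.60 in untreated cells, 10.57, 10.71 and 10.59 with Ara-C, 10.96, 10.90 and 10.93 with Ara-C and HS, and 11.16, 11.11 and 10.95 with Ara-C and HS5. Every HS and HS5 array was above every array without stroma. Adding HS gave 0.30 ± 0.09 (SE), adjusted p = 0.0186, adding HS5 gave 0.45 ± 0.09 (SE), adjusted p = 0.0417, and Ara-C minus untreated was 0.00 ± 0.09 (SE), adjusted p = 0.99. The HS5 call ended without each of the 6 arrays in turn, with adjusted p up to 0.147, and that for HS ended without Ara-C replicate 1 or 3 or HS replicate 1, with adjusted p up to 0.0617. HS5 minus untreated, 0.45 ± 0.09 (SE), adjusted p = 0.00106, kept its call without each array.

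ABCA7, a phospholipid transporter related to ABCA1, was detected by probe ILMN_1743205 on all 3 HS arrays, on 1 Ara-C array and on no untreated or HS5 array. Its levels were 4.77, 5.17 and 4.81 in untreated cells, 5.41, 5.80 and 5.01 with Ara-C, 6.31, 6.78 and 6.04 with Ara-C and HS, and 5.53, 5.27 and 5.51 with Ara-C and HS5. All HS arrays lay above the 9 others. The pattern rests on 1 of the gene's 3 probes. The others, ILMN_1729894 and ILMN_2259319, were detected on no array, with means of 4.49 and 4.63 with Ara-C and 4.52 and 4.56 with HS. The gene passed the limit of 3 detected arrays through the HS arrays, so its differences are a description with no test, although the counts of calls include it. Ara-C with HS was at least 1.53-fold higher than untreated, and HS5 was at least 1.54-fold lower than HS, where the bound sets the undetected group at the lowest level that counts as detected. Adding HS to Ara-C gave 0.97 on the log2 scale.

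ABCA4, the retinal lipid flippase, was higher with HS5. Its levels were 5.88, 5.97 and 6.18 in untreated cells, 5.99, 6.18 and 6.18 with Ara-C, 6.22, 5.62 and 5.74 with Ara-C and HS, and 6.66, 6.55 and 6.42 with Ara-C and HS5, with 1 of 3 HS arrays detected. All HS5 arrays lay above the 9 others. HS5 minus HS was 0.68 ± 0.14 (SE), adjusted p = 0.00195, and HS5 minus untreated 0.53 ± 0.14 (SE), adjusted p = 0.00687, while HS5 minus Ara-C, 0.42 ± 0.14 (SE), adjusted p = 0.215, was not called though these arrays did not overlap. ABCA10, a subfamily A member of uncertain substrate, was at 6.16, 6.17 and 6.19 in untreated cells, 7.02, 6.45 and 6.45 with Ara-C, 6.36, 6.12 and 6.48 with Ara-C and HS, and 6.79, 6.61 and 7.16 with Ara-C and HS5. The untreated arrays lay within a narrow band and below every HS5 and Ara-C array. HS5 minus untreated was 0.68 ± 0.17 (SE), adjusted p = 0.00349. The calls for Ara-C minus untreated, 0.47 ± 0.17 (SE), adjusted p = 0.0297, and for HS5 minus HS, 0.53 ± 0.17 (SE), adjusted p = 0.0202, each ended without single arrays. These were Ara-C replicate 1 or any untreated replicate for the first (adjusted p up to 0.147), and HS replicate 2 or HS5 replicate 3 for the second (adjusted p up to 0.0946).

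ABCG1, which moves cholesterol to high density lipoprotein, had means of 7.05 ± 0.28 in untreated cells, 7.63 ± 0.11 with Ara-C, 7.14 ± 0.18 with HS and 7.38 ± 0.18 with HS5 (SD, n = 3 each). Against untreated cells the Ara-C group differed by 0.58 ± 0.14 (SE), adjusted p = 0.00444, and adding HS gave -0.49 ± 0.14 (SE), adjusted p = 0.0148, a call that ended without Ara-C replicate 2 or HS replicate 1 (adjusted p up to 0.0645). ABCA9 and ABCG5 were called in no comparison, and their differences lay between -0.40 and 0.40. ABCA5, ABCA6, ABCA8, ABCA12, ABCA13, ABCG4 and ABCG8 were detected on no array.

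Among the organelle members of subfamily B, ABCB9, a lysosomal peptide transporter, was called in 3 comparisons. It was at 7.11, 7.02 and 7.15 in untreated cells, 7.94, 8.30 and 7.90 with Ara-C, 8.14, 8.12 and 7.97 with Ara-C and HS, and 7.74, 7.81 and 7.89 with Ara-C and HS5. All 9 arrays with Ara-C lay above the untreated ones. With Ara-C the difference from untreated was 0.95 ± 0.11 (SE), adjusted p = 1.26e-05, a level 1.93 times higher, and a second probe gave 0.92 ± 0.16 (SE), adjusted p = 0.000497. Adding HS gave 0.03 ± 0.11 (SE), adjusted p = 0.841, and adding HS5 -0.23 ± 0.11 (SE), adjusted p = 0.385. ABCB10, an erythroid-linked mitochondrial transporter, was called for HS5 minus untreated alone, with -0.45 ± 0.13 (SE), adjusted p = 0.00823. ABCB6, a porphyrin transporter, was undetected in untreated cells and at least 1.09-fold higher with HS5. It passed the limit of 3 detected arrays only through the groups given Ara-C, so this difference is a description with no test. The counts of calls include it, and that call ended without untreated replicate 3 or HS5 replicate 2. ABCB8 was detected on no array.

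Among the peroxisomal members, ABCD3, which carries branched and long chain acyl-CoA into peroxisomes, ran opposite to ABCA2. Its levels were 7.80, 7.71 and 7.87 in untreated cells, 8.39, 8.39 and 8.19 with Ara-C, 7.92, 7.30 and 7.57 with Ara-C and HS, and 8.52, 8.06 and 8.48 with Ara-C and HS5. All Ara-C arrays lay above all untreated and all HS arrays. Against untreated cells Ara-C gave 0.53 ± 0.15 (SE), adjusted p = 0.0113, adding HS gave -0.73 ± 0.15 (SE), adjusted p = 0.00225, and HS5 minus HS was 0.76 ± 0.15 (SE), adjusted p = 0.00159. ABCD4 was detected on 1 Ara-C array and ABCD2 on none.

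Of the members that are not transporters, ABCE1 and ABCF2 were lower in every group given Ara-C. ABCE1 splits ribosomes after termination, and its levels were 10.84, 10.79 and 10.91 in untreated cells, 10.12, 10.001 and 10.31 with Ara-C, 10.27, 10.46 and 10.40 with Ara-C and HS, and 9.95, 10.09 and 10.10 with Ara-C and HS5. No array with Ara-C reached the lowest untreated array. For Ara-C minus untreated the difference was -0.70 ± 0.10 (SE), adjusted p = 5.92e-05, and the second probe gave -0.79 ± 0.11 (SE), adjusted p = 5.92e-05. Adding HS gave 0.23 ± 0.10 (SE), adjusted p = 0.074 on the first probe and 0.36 ± 0.11 (SE), adjusted p = 0.0189 on the second, so the probes differed in this call. Against untreated cells the HS group differed by -0.47 ± 0.10 (SE), adjusted p = 0.00183, and the HS5 group -0.80 ± 0.10 (SE), adjusted p = 1.66e-05.

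ABCF2 belongs to a subfamily of ribosome-associated proteins, and its levels were 8.38, 8.23 and 8.21 in untreated cells, 7.53, 7.60 and 7.36 with Ara-C, 7.48, 7.25 and 7.58 with Ara-C and HS, and 7.17, 7.35 and 7.36 with Ara-C and HS5. The untreated arrays lay above the 9 others. The drug alone gave -0.78 ± 0.11 (SE), adjusted p = 5.81e-05, with HS -0.84 ± 0.11 (SE), adjusted p = 4.88e-05 and with HS5 -0.98 ± 0.11 (SE), adjusted p = 6.72e-06 against the same cells. A second probe gave -0.46 ± 0.21 (SE) for Ara-C, which was not called (adjusted p = 0.0799), and was called for HS and HS5 against untreated cells (adjusted p = 0.0322 and 0.0461).

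ABCF3 and ABCF1 were lower with HS. ABCF3, linked to translation and antiviral response, was at 6.25, 6.30 and 6.16 in untreated cells, 6.05, 5.78 and 6.43 with Ara-C, 5.64, 5.54 and 4.90 with Ara-C and HS, and 6.02, 5.90 and 6.22 with Ara-C and HS5, and 1 of the 3 HS arrays was detected. The HS arrays lay below the 9 others. Adding HS gave -0.73 ± 0.19 (SE), adjusted p = 0.0077, and HS5 minus HS was 0.69 ± 0.19 (SE), adjusted p = 0.00967. ABCF1, which binds initiation factor eIF2, had means of 11.41 ± 0.02 in untreated cells, 11.58 ± 0.10 with Ara-C, 11.11 ± 0.07 with HS and 11.49 ± 0.13 with HS5 (SD, n = 3 each). Adding HS gave -0.47 ± 0.09 (SE), adjusted p = 0.00128, and a second probe gave -0.37 ± 0.10 (SE), adjusted p = 0.0108. HS5 minus HS was 0.38 ± 0.09 (SE), adjusted p = 0.00465, and HS minus untreated -0.30 ± 0.09 (SE), adjusted p = 0.0179, the latter ending without untreated replicate 3 or HS replicate 3 (adjusted p up to 0.0604). The plot of other members shows these genes beside the sterol, organelle and peroxisomal ones.

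**Figure D4:**
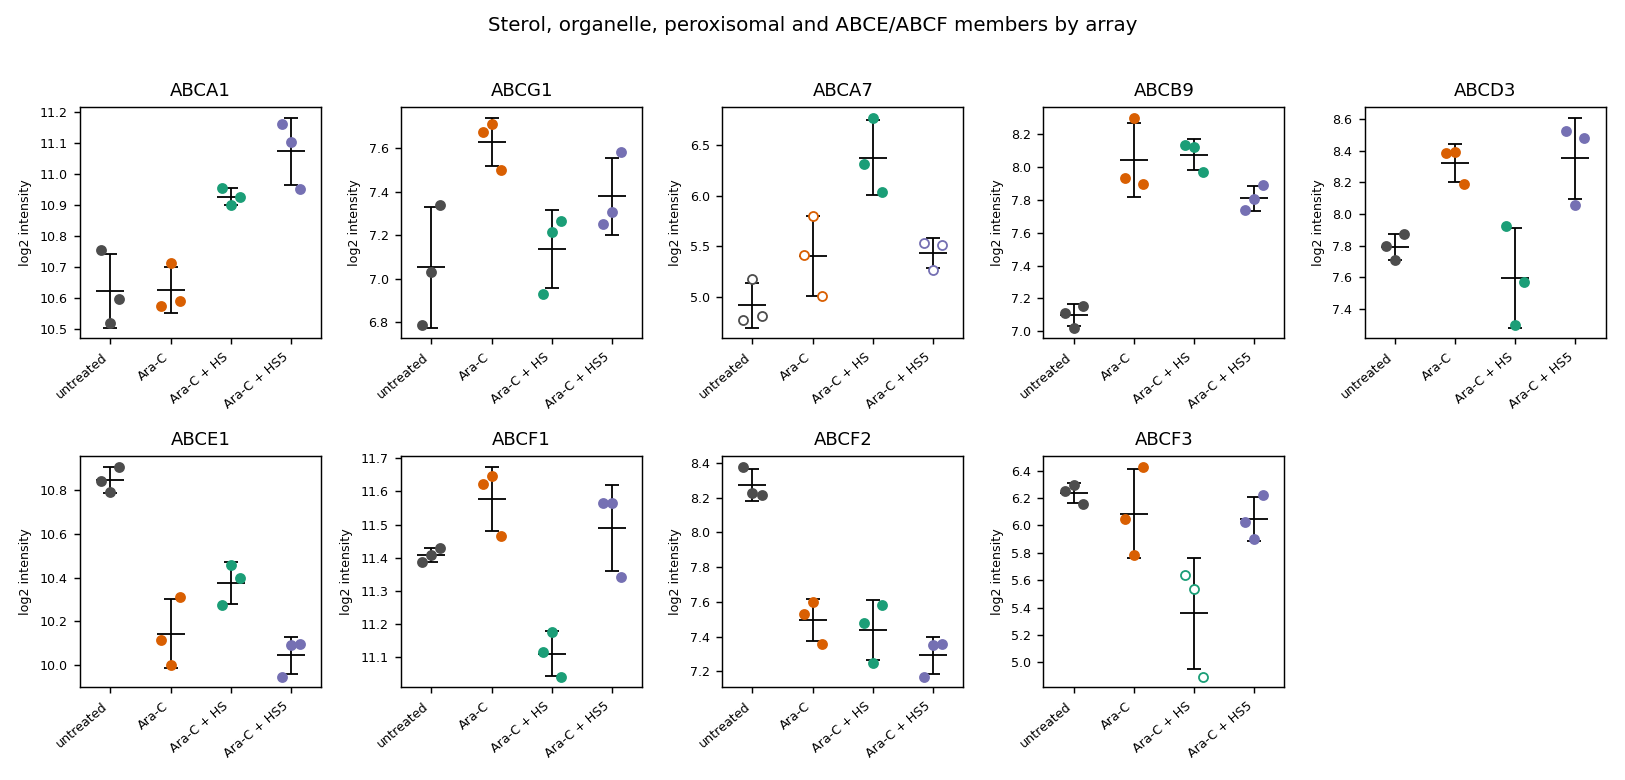
Log2 intensity (y axis, a separate scale for each gene) on each of the 12 arrays by group (x axis) for 9 sterol, organelle, peroxisomal and ABCE or ABCF genes, with lines for mean ± SD over 3 arrays. Filled points mark groups in which the probe was detected on all 3 arrays. ABCB9 was higher in all groups given Ara-C, and ABCE1 and ABCF2 were highest in untreated cells.

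The pseudogene ABCA11 was at 6.14, 5.34 and 6.24 in untreated cells, 6.05, 6.19 and 6.96 with Ara-C, 7.02, 6.59 and 6.56 with Ara-C and HS, and 7.04, 6.49 and 6.44 with Ara-C and HS5. Against untreated cells it was called with HS, 0.82 ± 0.27 (SE), adjusted p = 0.0253, and with HS5, 0.75 ± 0.27 (SE), adjusted p = 0.03. These calls ended without untreated replicate 2 or without replicate 1 of the stroma group, with adjusted p up to 0.115 and 0.144. The other pseudogene, ABCC13, was detected on 1 Ara-C array. Over the 6 genes with a second kept probe, 27 of 36 differences had the same sign on both probes, 18 were called on both with the same sign, and 4 were called on only 1.

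ABC proteins with other names, and genes known to work with ABC members, were described by counts, with differences on the log2 scale given for Ara-C minus untreated and then for adding HS to Ara-C. Of all genes 51.8% were called in the former, 25.5% higher and 26.3% lower, and 42.1% in the latter, 21.6% higher and 20.5% lower. TAP1 and TAP2, which carry antigen peptides into the endoplasmic reticulum, were tested, and CFTR was not. TAP1 was higher with Ara-C, by 0.47 ± 0.11 (SE), adjusted p = 0.00238, and TAP2 was higher when HS was added, by 0.52 ± 0.08 (SE), adjusted p = 0.00023. Of 10 tested transporter regulators and vault genes 5 were higher and 0 lower with Ara-C, and 1 was higher and 5 lower when HS was added. These are 50% and 60% called, beside 51.8% and 42.1% of all genes. FOXO3, a stress-response factor, differed by 0.50 ± 0.09 (SE), adjusted p = 0.000287 with Ara-C and -0.42 ± 0.09 (SE), adjusted p = 0.00171 with HS added, and KEAP1, which holds back the antioxidant factor NFE2L2, differed by 0.44 ± 0.09 (SE), adjusted p = 0.00139 and -0.49 ± 0.09 (SE), adjusted p = 0.000995. The median differences of this list were 0.20 and -0.32.

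Of 17 tested genes of glutathione synthesis and conjugation, which supply conjugates that ABCC pumps export, 11 were higher and 0 lower with Ara-C. When HS was added 2 were higher and 6 lower. The shares called were 64.7% and 47.1%, beside 51.8% and 42.1% of all genes, and 25.5% of all genes were higher with Ara-C. GCLM, a subunit of the enzyme that limits glutathione synthesis, differed by 0.86 ± 0.11 (SE), adjusted p = 2.29e-05 and then -0.86 ± 0.11 (SE), adjusted p = 4.21e-05, and the glutathione transferase MGST3 differed by 0.95 ± 0.09 (SE), adjusted p = 2.44e-06 and then -0.73 ± 0.09 (SE), adjusted p = 4.8e-05. The median differences were 0.42 and -0.13, beside -0.03 and 0.01 over all genes. Of 14 tested liver X receptor and sterol efflux partners, 7 were higher and 3 lower with Ara-C, and 2 higher and 3 lower with HS added, or 71.4% and 35.7% called, beside 51.8% and 42.1% of all genes. NR1H3, the receptor LXR-alpha, differed by 1.11 ± 0.10 (SE), adjusted p = 1.59e-06 with Ara-C. APOE, undetected in untreated cells, was at least 1.99-fold higher with Ara-C. It too passed the limit of detected arrays only through the groups given Ara-C, so this is a description with no test, although the counts include it. The median differences were 0.18 and -0.10.

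Of genes of haem and iron-sulfur synthesis, 19 were tested, with 4 higher and 6 lower with Ara-C and 5 higher and 3 lower with HS added, and medians of -0.13 and 0.12. The shares called, 52.6% and 42.1%, were near the 51.8% and 42.1% of all genes. LYRM4, a partner of the cysteine desulfurase, differed by -1.59 ± 0.09 (SE), adjusted p = 1.72e-08 and 1.06 ± 0.09 (SE), adjusted p = 1.56e-06, and PPOX, an enzyme of haem synthesis, differed by -0.80 ± 0.13 (SE), adjusted p = 0.000256 and 0.85 ± 0.13 (SE), adjusted p = 0.000258. Of 18 peroxisome genes 6 were higher and 4 lower with Ara-C, and 5 higher and 3 lower with HS, with medians of 0.05 and 0.16. These shares, 55.6% and 44.4%, were also near those of all genes. PEX13, a peroxisomal import protein, differed by 0.52 ± 0.10 (SE), adjusted p = 0.000724 and -0.67 ± 0.10 (SE), adjusted p = 0.000154. Of 17 genes of ribosome recycling and initiation, 1 was higher and 9 lower with Ara-C, and 6 were higher and 2 lower with HS, with medians of -0.31 and 0.06. This is 58.8% and 47.1% called, beside 51.8% and 42.1% of all genes, of which 26.3% were lower with Ara-C. EIF2S3, a subunit of initiation factor eIF2, differed by -0.70 ± 0.10 (SE), adjusted p = 9.34e-05 and 0.81 ± 0.10 (SE), adjusted p = 5.26e-05.

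When HS5 was added to Ara-C, 0 members of each of these 7 lists were called in limma, beside 0.903% of all genes. At an unadjusted p under 0.05 there were 1 of 2 among the other ABC proteins, 2 of 10 regulators, 3 of 14 sterol partners, 0 of 17 glutathione genes, 2 of 19 haem and iron-sulfur genes, 1 of 18 peroxisome genes and 1 of 17 ribosome genes, beside 1505 of all 11183 genes.

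The split of calls by direction depended on the scaling, for the ABC genes as for all genes. With arrays aligned by their medians in place of quantiles, the median of all genes moved to 0.19 for Ara-C minus untreated, to 0.13 for HS minus untreated and to -0.11 for HS5 minus Ara-C. For Ara-C minus untreated the calls among the 25 ABC genes were then 11 higher and 4 lower, beside 6 and 5 with quantiles. Over all genes the same change moved 2851 higher and 2942 lower to 4067 and 1259. For HS minus untreated the ABC calls were 9 higher and 3 lower, beside 7 and 5 with quantiles, and all genes moved from 2606 and 2442 to 3296 and 1077. For HS5 minus Ara-C the single ABC call was lost, and all genes moved from 59 higher and 42 lower to 34 and 65. ABCA2, ABCC4, ABCE1 and ABCF2 were the 4 still called lower with Ara-C, and no value called with quantiles changed its sign.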

How the data were processed

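Each of the 12 deposited scanner tables gives, per the file headers, the average signal of every probe (an intensity) and its detection p-value against negative controls. No normalization between arrays was seen in them. The authors' processed table holds log2 values that equal quantile-normalized signals without background correction to within 0.000167, and it served as an alternative. R 2.9.2 is named in the submitters' processing notes, and no other software is given in the sources used here.

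Background correction and quantile normalization used limma 3.58.1 (function neqc, offset 16) under R 4.3.3. Probes were kept at a detection p under 0.01 on at least 3 of 12 arrays, and a gene was represented by its brightest kept probe by mean, giving 11183 genes. A limma model with a mean for each of the 4 groups was fitted to all 12 arrays (8 residual degrees of freedom). Tests of 6 contrasts were 2-sided, with Benjamini-Hochberg adjustment over all genes. Errors of means are SD, and errors of differences are standard errors of the fit. Where a probe was undetected on all 3 arrays of a group, the fold is a bound, and no fold is given where both groups were undetected. The number of arrays limits the precision. Levels of different probes were not compared. The limma fit was tested on simulated log2 values with known changes in Ara-C minus untreated, and the steps before the fit were not. The labels of replicates do not say that a number pairs samples, and deviations of same-numbered arrays correlated at r = -0.046 to 0.025 over 18 pairs, so numbers were not used as pairs.

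Values on every array are given for the drug efflux members and for members called with at least 1.5-fold, and the rest by means, counts and ranges. Up to 3 genes of each list with the smallest adjusted p were named. Some genes that these rules would name are not reported here, and all counts and medians include them. The members and lists were chosen with earlier results of these data known. Gene symbols are those of the scanner tables, and promoters come from RefSeq. Probe positions were not used.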

Additional observations from a re-analysis of the deposited data

How the results depend on the processing

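The 64 ABC calls were recomputed without background correction, on the deposited log2 values, with a median shift, 3 other detection filters, other rules for several probes, another prior, the compared groups alone, the replicate number as a block, and without each array. The first 2 of these settings use nearly the same values and gave the same counts in every comparison, so they are in effect a single alternative. The setting with every kept probe as its own feature entered the counts of ABC calls but not the single calls. For each comparison only arrays of the 2 compared groups were left out. Within these limits, 40 of the calls held under every setting and 42 without any 1 array. Of 1024 recomputed called values 0 changed sign. By comparison the calls that held were 8 of 11 for Ara-C against untreated, 7 of 11 for HS and 0 of 1 for HS5 against Ara-C, 7 of 12 and 11 of 17 for HS and HS5 against untreated, and 7 of 12 for HS5 against HS. For HS5 against Ara-C the count of ABC calls, 1, became 0 with a median shift, with the 3 other filters (at least 1 array, a detection p under 0.05, no filter), with every kept probe as its own feature, with the 2 groups alone and with the replicate block. The share of all genes called was 0.278% to 0.885% under these settings, beside 0.903% with the settings used above. The unadjusted ABC count in limma was 2 of 25, beside 1505 of all 11183 genes. The cause of these losses was not tested. Without each array, counts ran from 9 to 12, 9 to 11, 0 to 0, 9 to 12, 13 to 17 and 8 to 12 in the order of comparisons above. Beside these, the share of all genes called ran from 46.4% to 47.3%, 35.1% to 37.9% and 0.25% to 0.447%. In the comparisons that follow it ran from 38.6% to 40.1%, 50.7% to 51.4% and 37.9% to 39%. The replicate block moved the count for Ara-C against untreated from 11 to 12, while all genes called went from 51.8% to 51.1%. For HS5 against untreated the count moved from 17 to 18, and all genes from 56.1% to 55.3%. Among the 64 calls the block ended that of ABCA1 alone (adjusted p = 0.0628). The median shift ended 7 calls, among them that one (adjusted p = 0.221), ABCA1 for HS against Ara-C (0.287), ABCA10 for HS5 against HS (0.0536), ABCC4 for HS5 against untreated (0.0561), and ABCC10 and ABCF1 for HS against untreated (0.373 and 0.102). With no filter on detection 11 calls ended, and the other settings ended at most 3 each. A slide block could not be fitted, since all arrays share 1 slide.

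Differences that were not called changed sign in 75 of 1376 recomputed values, and these were at most 0.19 in size. With a median shift the log2 difference became 0.19 for ABCC1, 0.031 for ABCC11 and 0.13 for ABCF3 (Ara-C minus untreated). It became -0.10 for ABCB10 and -0.037 for ABCB9 (HS minus Ara-C), and 0.083 for ABCA2, 0.12 for ABCA4, 0.020 for ABCA9, 0.052 for ABCC4 and 0.032 for ABCD3 (HS minus untreated). It became -0.082 for ABCA3, -0.035 for ABCA7, -0.019 for ABCA9, -0.076 for ABCC1 and -0.065 for ABCD3 (HS5 minus Ara-C), -0.010 for ABCB6 (HS5 minus HS), and 0.12 for ABCC1, 0.11 for ABCC10 and 0.015 for ABCF3 (HS5 minus untreated). With the mean of the kept probes it became -0.093 for ABCB9 (HS minus Ara-C) and 0.034 for ABCC4 (HS minus untreated). Without each array in turn, Ara-C minus untreated ran from -0.050 to 0.067 for ABCA1, -0.027 to 0.41 for ABCA9, -0.26 to 0.060 for ABCC1, -0.082 to 0.22 for ABCC10, -0.42 to 0.020 for ABCC11 and -0.32 to 0.0053 for ABCF3. HS minus Ara-C ran from -0.040 to 0.10 for ABCB10, -0.037 to 0.31 for ABCB6, -0.043 to 0.16 for ABCB9 and -0.13 to 0.036 for ABCF2. HS minus untreated ran from -0.38 to 0.052 for ABCA9, -0.086 to 0.23 for ABCC1, -0.14 to 0.13 for ABCC11, -0.049 to 0.23 for ABCG1 and -0.018 to 0.27 for ABCG5. HS5 minus Ara-C ran from -0.11 to 0.11 for ABCA3, -0.17 to 0.23 for ABCA7, -0.026 to 0.19 for ABCA9, -0.16 to 0.23 for ABCC1, -0.25 to 0.19 for ABCC11, -0.054 to 0.18 for ABCD3, -0.19 to 0.13 for ABCF3 and -0.29 to 0.11 for ABCG5. HS5 minus HS ran from -0.26 to 0.081 for ABCA11, -0.13 to 0.21 for ABCB6 and -0.33 to 0.066 for ABCC1, and HS5 minus untreated from -0.25 to 0.15 for ABCC1 and -0.17 to 0.037 for ABCC10.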
